A study of Arabidopsis thaliana with 18 samples.

Results

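Genes that set phosphate uptake and its movement from root to shoot were followed in root apices of Arabidopsis thaliana. The rule names 6 of them by locus identifier: IPS1 (AT3G09922), AT4 (AT5G03545), PHO2 (AT2G33770), NLA (AT1G02860), PHO1 (AT3G23430) and PHO1;H1 (AT1G68740). They are 6 of the 32852 features listed in every library, and all 6 passed the filter on low counts, which kept 20599 features. The series measured messenger RNA by poly(A)-selected, strand-specific, paired-end sequencing in wild-type plants of the ecotypes Landsberg erecta (Ler) and Columbia (Col). All seedlings grew for 7 days on medium with 500 µM phosphate, and root tips of about 0.5 cm were collected. The groups were Ler at 0 h, Ler at 1 h and Ler at 2 h after transfer to medium without phosphate, and Col at 0 h, Col at 1 h and Col at 2 h, with 3 libraries each that the series describes as biological replicates. No library is labelled as coming from plants kept on phosphate for 1 h or 2 h after a transfer. The 0 h libraries are labelled as untreated, while other protocol text describes a move to fresh medium with phosphate. Phosphate removal, the handling at transfer and time of day therefore cannot be told apart in any comparison with 0 h.

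The genes belong to a known circuit. When phosphate is scarce, the transcription factor PHR1 turns on microRNAs of the miR399 family, which act against the PHO2 messenger, and miR827, which acts against the NLA messenger. PHO2 is a ubiquitin-conjugating enzyme and NLA a RING-type ubiquitin ligase, and both lead to the breakdown of phosphate transport proteins. IPS1 and AT4 are RNAs known as target mimics: they hold miR399 at a site with a bulge that cannot be cut, and so relieve PHO2. PHO1 is the exporter that loads phosphate into the xylem of the root, and PHO1;H1 is a close relative with the same known activity.

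The sites that tie 4 of the genes to the microRNAs are shown first, because they are what sets the mimics apart from the real target. Sequences were read from the RefSeq annotation and genome of the TAIR10.1 assembly, 5′ to 3′. The mature microRNAs are given with the seed, bases 2 to 8, in capitals. The 6 members of the miR399 family share the seed GCCAAAG in their main arm, and MIR399b and MIR399c have the same mature sequence, so the family holds 5 distinct ones.
MIR399a: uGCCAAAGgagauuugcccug
MIR399b: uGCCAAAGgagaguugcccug
MIR399f: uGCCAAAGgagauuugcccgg
MIR827: uUAGAUGAccaucaacaaacu

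The mimic sites of IPS1 and AT4 are printed with the bases that pair with MIR399b in capitals. In both, the site pairs on either side of a bulge of 3 extra bases, which lies opposite the middle of the microRNA, between its positions 10 and 11. Outside that bulge, 3 positions of each site do not pair by Watson-Crick rules, 2 of them G-U pairs. The IPS1 site is at chr3:3051224-3051247 (plus strand), bases 236 to 259 of a 542-base transcript with 1 exon, and the AT4 site is at chr5:895149-895172 (plus strand), bases 568 to 591 of a 936-base transcript with 1 exon. RefSeq lists both loci as protein-coding and places both sites in the annotated reading frame, although the genes are known for acting as RNA.
IPS1 site: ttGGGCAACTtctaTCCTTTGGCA
AT4 site: ttGGGCAACTtcgaTCCTTTGGCA

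PHO2 carries 5 sites for the same family in its 5′ UTR, printed in the same way with the bases that pair in capitals. None has a bulge, and each has 2 mismatches to the best-matching member, MIR399a for 4 sites and MIR399f for the site at bases 959 to 979 of the transcript. They lie on the minus strand of chromosome 2 between chr2:14281770-14281790 and chr2:14282106-14282126.
PHO2 bases 680 to 700: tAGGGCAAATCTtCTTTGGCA
PHO2 bases 813 to 833: tAGGGCAtATCTCCTTTGGCA
PHO2 bases 902 to 922: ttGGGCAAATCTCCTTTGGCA
PHO2 bases 959 to 979: tCGaGCAAATCTCCTTTGGCA
PHO2 bases 1016 to 1036: tAGaGCAAATCTCCTTTGGCA

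NLA carries 1 site for MIR827 in its 5′ UTR at chr1:635401-635421 (plus strand), with 1 mismatch.
NLA site: tGTTTGTTGATGGTCATCTAA
With at most 2 mismatches and no bulge, 1 of the 36951 genes searched had a miR399 site and 1 had a MIR827 site, and these were PHO2 and NLA. With at most 5 mismatches, a site without a bulge was found for miR399 in 0.636% of genes and for MIR827 in 0.655%, and a site with a bulge for miR399 in 1.55%. No site for either microRNA was found in PHO1 or PHO1;H1 at that limit. The microRNA genes themselves could not be followed: of 7 loci listed for the miR399 family and MIR827, 3 had any count, with 9 counts in all 18 libraries together and at most 2 in 1 library, and none passed the filter.

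PHR1 is known to bind the P1BS motif, GNATATNC, which reads the same on both strands. It was searched in the 1000 bases before each annotated start, where 19.8% of 37897 genes hold it at least once. IPS1 and AT4 each held 2 copies, PHO2 and NLA 1 each, and PHO1 and PHO1;H1 none. The nearest copy to a start was that of AT4, 26 bases before it, and AT4 was the one member with the motif in the window from 250 bases before to 50 bases after the start, which holds it in 6.13% of genes. The copies are shown with 10 bases on each side and the motif in capitals, so that the 4 copies of the 2 mimics can be compared, at chr3:3050397-3050424 and chr3:3050431-3050458 for IPS1 and chr5:894008-894035 and chr5:894546-894573 for AT4 (all plus strand). The IPS1 copies and the nearer AT4 copy have the same letters, and the farther AT4 copy has others at the N positions. A match is a description of the letters and not of binding.
IPS1, 582 bases before the start: tttggtaacgGCATATTCcatcggatga
IPS1, 548 bases before the start: attctcaaaaGCATATTCacgtaagact
AT4, 564 bases before the start: cgttgctattGTATATGCagtgtcaact
AT4, 26 bases before the start: ttggtaattgGCATATTCcttttagaag

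The libraries held 23451068 to 29277597 counts, and levels are given as CPM, the count that a library of 1000000 counts would hold, with library sizes scaled by the TMM method. The floor of 3 counts that a count of 0 allows corresponded to 0.102 to 0.131 CPM. The labelled tissue was checked against markers: 5 of 5 root tip markers had counts in every library, with a summed level of 109 to 183 CPM. Of 6 stele markers, 5 were detected in every library and LHW was listed at 0 in all 18. Photosynthesis genes, markers of green tissue, summed to 43.3 to 356 CPM, of which most came from LHCB1.5. Fold changes were tested with edgeR's quasi-likelihood test with Benjamini-Hochberg adjustment over all 20599 features, and a change was called at an adjusted p under 0.05. The replicate number was not part of this fit, and some changes given as not passing were called when it was added as a block. Those calls are given with the checks of the processing.

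Scaled for length, AT4 was the most abundant of the 6 transcripts and IPS1 the least. Averaged over the 18 libraries, the level per kilobase of exons was 146 CPM per kb for AT4, 66.7 for PHO1, 23.4 for PHO2, 10.4 for NLA, 6.03 for PHO1;H1 and 3.89 for IPS1. The 2 mimics therefore differed widely in level although both carry the same kind of site. IPS1 had between 14 and 169 counts per library, against 1103 to 8034 counts for AT4, and the SE of its log2 change was the largest of the 6 in all 15 contrasts. By mean CPM, PHO1 stood above 95.5% of the features kept, AT4 above 92.7%, PHO2 above 89.1%, PHO1;H1 above 54.1%, NLA above 49.4% and IPS1 above 14.98%.

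**Figure D1:**
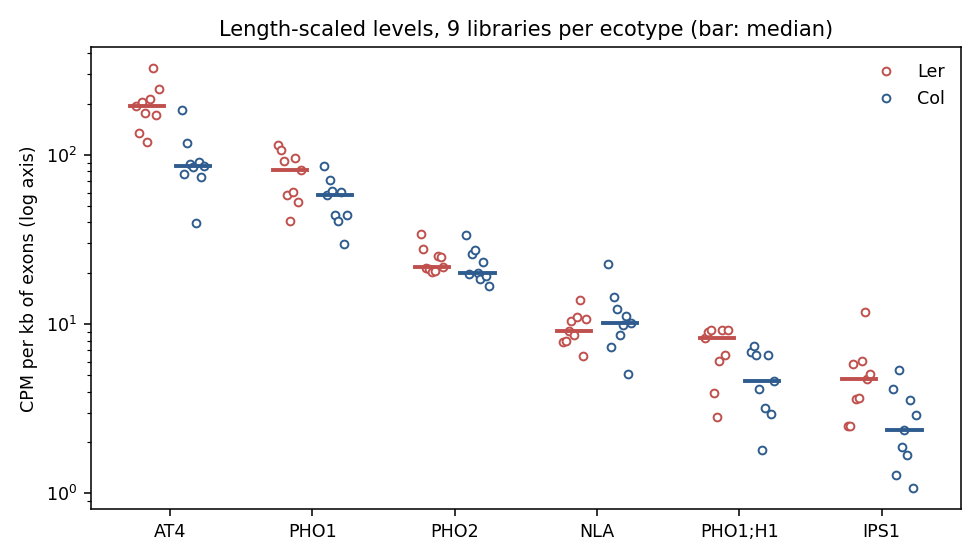
Level of each gene as CPM per kilobase of exons on a log axis, with 1 point per library (9 of Ler, left, and 9 of Col, right, for each gene) and a bar at the median. AT4 averaged 146 CPM per kb over the 18 libraries and IPS1 3.89.

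PHO1, the xylem-loading exporter, fell in the first hour. In Ler, its level was 345, 319.9 and 277 CPM in the libraries at 0 h, 175, 122 and 181 CPM at 1 h, and 288, 158 and 245 CPM at 2 h. In Col, it was 256, 173 and 214 CPM at 0 h, 185, 132 and 122 CPM at 1 h, and 181, 89.0 and 133 CPM at 2 h. Every Ler library at 1 h was below every Ler library at 0 h, whereas in Col the 1 h and 0 h libraries overlapped. PHO1 fell by 0.98 on the log2 scale in Ler at 1 h against 0 h (SE 0.27, adjusted p = 0.0358). In Col the log2 change at 1 h was -0.55 (SE 0.26, adjusted p = 0.208) and did not pass. Averaged over both ecotypes, PHO1 fell by 0.77 at 1 h against 0 h (SE 0.19, adjusted p = 0.00813), and this call held in 12 of 12 fits that each left out 1 library. The call in Ler alone was lost when any library other than replicate 3 at 1 h was left out, with log2 changes of -1.10 to -0.83 and adjusted p of 0.0475 to 0.162 over the 6 fits. At 2 h against 0 h the log2 change was -0.45 in Ler (adjusted p = 0.463) and -0.68 in Col (adjusted p = 0.128), and neither passed. With the replicate number as a block, edgeR called PHO1 lower in Col at 1 h (adjusted p = 0.0249) and at 2 h (adjusted p = 0.00854). Over all features that fit called 21.7% and 22.1% in these 2 comparisons.

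PHO1;H1, the second exporter, followed the same course in the first hour and was again higher at 2 h than at 1 h. In Ler, it stood at 26.5, 28.6 and 29.4 CPM at 0 h, 12.5, 8.96 and 19.3 CPM at 1 h, and 29.7, 21.0 and 29.3 CPM at 2 h. In Col, the libraries held 21.7, 23.6 and 21.0 CPM at 0 h, 13.3, 5.72 and 10.3 CPM at 1 h, and 21.0, 9.34 and 14.7 CPM at 2 h. In both ecotypes all 3 libraries at 1 h were below all 3 at 0 h. PHO1;H1 fell by 1.18 on the log2 scale in Col at 1 h against 0 h (SE 0.32, adjusted p = 0.0254). The log2 change in Ler was -1.05 (SE 0.31, adjusted p = 0.0572), just outside the threshold. Over both ecotypes it fell by 1.12 at 1 h (SE 0.22, adjusted p = 0.0021), a call held in 12 of 12 fits without 1 library. From the first to the second hour it rose by 0.80 over both ecotypes (SE 0.22, adjusted p = 0.0467), and at 2 h against 0 h the log2 change was -0.08 in Ler (adjusted p = 0.944) and -0.56 in Col (adjusted p = 0.275). The call in Col at 1 h was lost without replicate 1 or 3 at 0 h, or without replicate 2 or 3 at 1 h (adjusted p of 0.0510 to 0.111 in these 4 fits), and the rise from 1 h to 2 h was lost in 8 of 12 such fits.

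Markers of cell types moved in the same libraries, in both directions. The summed level of the stele markers, which mark the tissue where PHO1 is known to act, was 212 to 219 CPM in Ler at 0 h, 121 to 144 CPM at 1 h and 158 to 186 CPM at 2 h. In Col the sums were 181 to 220 CPM at 0 h, 131 to 139 CPM at 1 h and 155 to 159 CPM at 2 h. At 1 h against 0 h over both ecotypes, 2 of the 5 stele markers that passed the filter fell and none rose, against 10.03% of all features called lower and 19.8% in either direction: WOL, a cytokinin receptor, fell by 0.68 (adjusted p = 0.000105) and SKOR, a potassium channel of the stele, fell by 1.60 (adjusted p = 0.00162). The photosynthesis markers summed to 46.8 to 138 CPM in Ler at 1 h, against 148 to 356 CPM in Ler at 0 h, and to 43.3 to 139 CPM in Col at 1 h, against 205 to 272 CPM in Col at 0 h. Of the 4 that passed the filter, 1 fell over both ecotypes and none rose. Root tip markers moved the other way, with sums of 152 to 159 CPM in Ler at 1 h, against 123 to 128 CPM in Ler at 0 h, and 144 to 183 CPM in Col at 1 h, against 109 to 129.6 CPM in Col at 0 h. Of these 5, 2 rose over both ecotypes and none fell: PLT2, a regulator of the root stem cell niche, by 0.60 (adjusted p = 0.0202), and WOX5, a marker of the quiescent centre, by 3.65 (adjusted p = 5.68e-07). WOX5 averaged 16.2 ± 4.18 CPM in Ler at 1 h, against 1.27 ± 0.55 CPM in Ler at 0 h, and 9.06 ± 3.35 CPM in Col at 1 h, against 0.73 ± 0.25 CPM in Col at 0 h. Markers of root hairs and endodermis summed to 209 to 324 CPM in Ler at 1 h, against 281 to 345 CPM in Ler at 0 h, and to 395 to 690.1 CPM in Col at 1 h, against 592 to 763 CPM in Col at 0 h, and 1 of 3 fell and none rose. The part of these markers in the result was not tested. In bulk samples such as these, fewer cells of a type and less RNA per cell cannot be told apart.

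**Figure D2:**
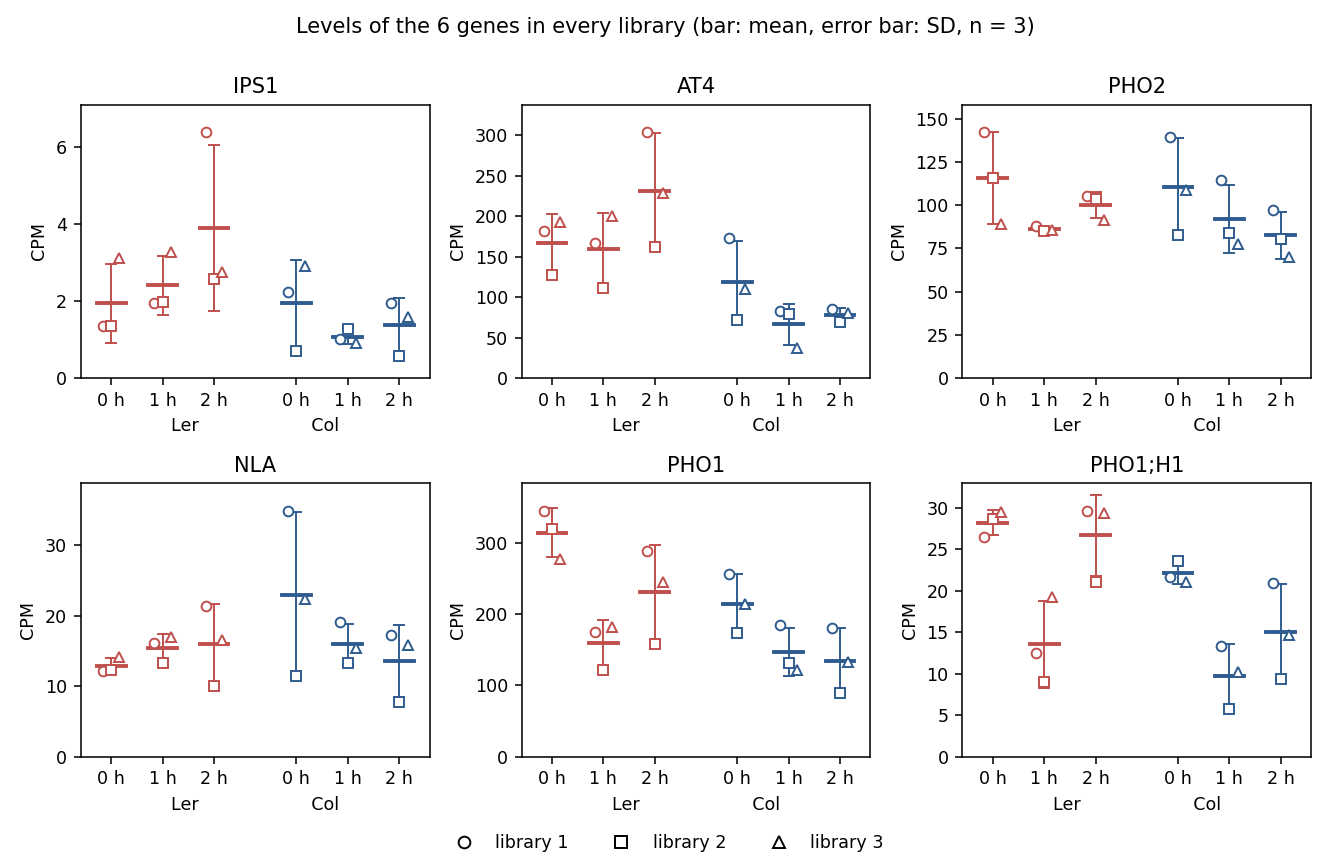
CPM of the 6 genes in every library, with Ler on the left and Col on the right of each panel and 0, 1 and 2 h in order; symbols mark the replicate number, bars the mean and error bars the SD of 3 libraries. PHO1;H1 averaged 13.6 ± 5.24 CPM in Ler at 1 h, against 28.2 ± 1.52 CPM in Ler at 0 h, and 9.75 ± 3.80 CPM in Col at 1 h, against 22.1 ± 1.32 CPM in Col at 0 h.

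With all libraries fitted, neither mimic was called as changed within an ecotype in the 2 hours after transfer. AT4 in Ler was at 182, 127 and 193 CPM at 0 h, 166, 111 and 201 CPM at 1 h, and 304, 162 and 228 CPM at 2 h. In Col it was at 173, 71.8 and 110.0 CPM at 0 h, 82.3, 79.3 and 37.3 CPM at 1 h, and 85.0, 69.6 and 80.4 CPM at 2 h. The libraries of the 3 times overlapped in each ecotype. The log2 change of AT4 at 2 h against 0 h was 0.47 in Ler (SE 0.34, adjusted p = 0.573) and -0.60 in Col (SE 0.34, adjusted p = 0.284). At 1 h against 0 h it was -0.07 in Ler (adjusted p = 0.980) and -0.84 in Col (adjusted p = 0.138). Without replicate 2 of Col at 0 h the change in Col at 1 h passed the threshold (log2 -1.10, adjusted p = 0.0437), and over the 6 fits that each left out 1 library it ranged from -1.10 to -0.48.

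IPS1 had low counts in every group. In Ler its level was 1.36, 1.35 and 3.13 CPM at 0 h, 1.96, 1.98 and 3.28 CPM at 1 h, and 6.40, 2.56 and 2.76 CPM at 2 h. In Col it was 2.23, 0.695 and 2.91 CPM at 0 h, 1.02, 1.28 and 0.914 CPM at 1 h, and 1.95, 0.581 and 1.57 CPM at 2 h. A single library, replicate 1 of Ler at 2 h, stood well above the rest of its group. The log2 change at 2 h against 0 h was 1.01 in Ler (SE 0.52, adjusted p = 0.383), with 95% limits of -0.13 and 2.14, and -0.50 in Col (SE 0.54, adjusted p = 0.589), with limits of -1.68 and 0.68. All 3 times overlapped in both ecotypes.

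Between ecotypes the mimics differed. AT4 was higher in Ler than in Col at 1 h, by 1.27 on the log2 scale (SE 0.34, adjusted p = 0.0208), and at 2 h, by 1.56 (SE 0.35, adjusted p = 0.00531), a difference of 2.96-fold. At both times every Ler library was above every Col library. At 0 h the difference was 0.50 (SE 0.34, adjusted p = 0.333) and did not pass. Averaged over the 3 times, AT4 was 2.16-fold higher in Ler (log2 1.11, SE 0.20, adjusted p = 0.00039), a call kept in 18 of 18 fits that left out 1 library. The call at 1 h was lost without replicate 3 of Ler at 1 h (log2 1.07, adjusted p = 0.0869), without replicate 3 of Col at 1 h (log2 0.98, adjusted p = 0.0774), and when only the 6 libraries compared were fitted (adjusted p = 0.0620).

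IPS1 was also higher in Ler than in Col when averaged over times (log2 0.89, SE 0.31, adjusted p = 0.0363). Its difference was 0.0011 at 0 h (adjusted p = 1.00), 1.17 at 1 h (adjusted p = 0.193) and 1.51 at 2 h (adjusted p = 0.0685). Ler and Col libraries did not overlap at 1 h or at 2 h. The share of all features that did not overlap between ecotypes was not counted, so this is a description only, as it is for AT4. The averaged call was lost in 6 of 18 fits without 1 library, those without replicate 3 of Ler at 0 h, replicate 3 of Ler at 1 h, replicate 1 of Ler at 2 h, replicate 1 or 3 of Col at 1 h, or replicate 2 of Col at 2 h, with adjusted p of up to 0.0959. The change of the ecotype difference over time was tested as an interaction. For AT4 at 2 h it was 1.06 (SE 0.48, adjusted p = 0.274) and for IPS1 1.51 (SE 0.75, adjusted p = 0.303), so a larger difference at 2 h than at 0 h was not shown for either.

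PHO1 and PHO1;H1 were higher in Ler as well, by less. Averaged over times, PHO1 was higher by 0.48 (SE 0.15, adjusted p = 0.0225) and PHO1;H1 by 0.55 (SE 0.18, adjusted p = 0.0274). The call for PHO1 was kept in 18 of 18 fits without 1 library, and that for PHO1;H1 in 17 of 18, being lost without replicate 3 of Ler at 1 h (log2 0.44, adjusted p = 0.0658). At single times neither passed: for PHO1 the differences were 0.55 at 0 h (adjusted p = 0.167), 0.12 at 1 h (adjusted p = 0.839) and 0.78 at 2 h (adjusted p = 0.0585). For PHO1;H1 they were 0.35 at 0 h (adjusted p = 0.465), 0.48 at 1 h (adjusted p = 0.397) and 0.83 at 2 h (adjusted p = 0.0879). The stele marker sums of Ler and Col, given above, overlapped at all 3 times. Averaged over times, 1 of the 5 stele markers past the filter was called higher in Ler and none lower. Of the 4 photosynthesis markers past the filter, 1 was called higher in Ler and none lower. Over all features 16.5% were called higher and 32.7% in either direction. The sums of the root hair and endodermis markers did not overlap between Ler and Col at 0 h or at 1 h. At 2 h they overlapped, at 251 to 455 CPM in Ler and 391 to 444 CPM in Col. The part of these markers in the ecotype differences was not tested.

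PHO2, the target that the mimics relieve, was called in no comparison by edgeR fitted to all 18 libraries without a block. Its level in Ler was 142, 116 and 89.2 CPM at 0 h, 88.1, 84.9 and 85.6 CPM at 1 h, and 105, 104 and 91.2 CPM at 2 h. In Col it was 139.7, 82.6 and 109 CPM at 0 h, 115, 83.7 and 77.7 CPM at 1 h, and 97.1, 80.5 and 70.1 CPM at 2 h. All Ler libraries at 1 h lay below all Ler libraries at 0 h, although the nearest libraries, at 88.1 CPM at 1 h and 89.2 CPM at 0 h, were close, and the Col libraries overlapped. Over both ecotypes the log2 change at 1 h against 0 h was -0.34 (SE 0.14, adjusted p = 0.104) and at 2 h against 0 h -0.31 (SE 0.14, adjusted p = 0.201). Leaving out replicate 2 of Col at 0 h, replicate 1 of Col at 1 h or replicate 3 of Ler at 0 h brought the change at 1 h past the threshold (adjusted p of 0.0283 to 0.0487). Ler and Col differed by 0.08 averaged over times (SE 0.12, adjusted p = 0.623), with 95% limits of -0.17 and 0.34.

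NLA, the target of MIR827, varied most between replicates of Col at 0 h. In Ler it stood at 12.1, 12.3 and 14.1 CPM at 0 h, 16.1, 13.3 and 16.98 CPM at 1 h, and 21.4, 9.98 and 16.6 CPM at 2 h. In Col it stood at 35.0, 11.4 and 22.3 CPM at 0 h, 19.1, 13.3 and 15.4 CPM at 1 h, and 17.2, 7.80 and 15.8 CPM at 2 h. The highest and the lowest Col library at 0 h differed 3.06-fold, and the groups overlapped in all comparisons. The log2 change at 2 h against 0 h was 0.32 in Ler (SE 0.36, adjusted p = 0.743) and -0.75 in Col (SE 0.36, adjusted p = 0.199), and the difference of these changes was 1.07 (SE 0.50, adjusted p = 0.285). Ler against Col at 0 h was -0.83 (SE 0.36, adjusted p = 0.121). Both that difference and the change in Col at 2 h passed the threshold when replicate 2 of Col at 0 h was left out (log2 -1.15, adjusted p = 0.0201, and log2 -1.08, adjusted p = 0.0359). NLA overlaps the end of AT1G02870 on the opposite strand by 49 bases, and by 278 bases AT1G04147, annotated as a long non-coding RNA on the opposite strand and not analysed here. AT1G02870 held 530 to 1321 counts per library, and the counting's use of strand is not given in the sources used here, so some reads cannot be assigned to one gene with certainty.

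**Figure D3:**
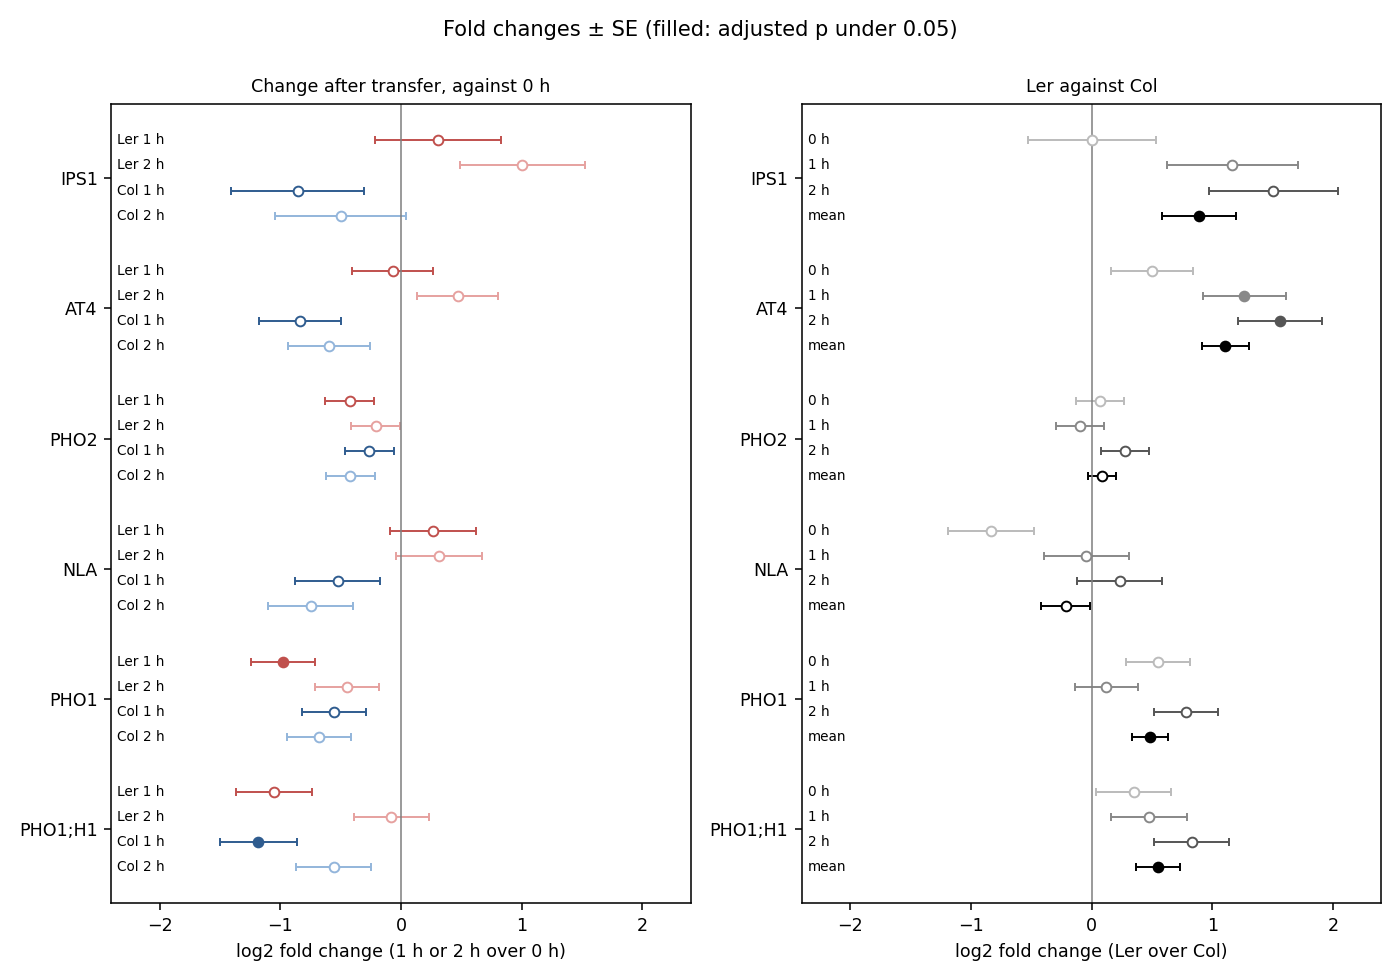
Log2 fold changes with SE for the 6 genes, on the left for 1 h or 2 h over 0 h in each ecotype and on the right for Ler over Col at 0, 1 and 2 h and as the mean of these; filled points have an adjusted p under 0.05. Filled on the left are PHO1 in Ler at 1 h and PHO1;H1 in Col at 1 h, and on the right AT4 at 1 h and 2 h and the averages of IPS1, AT4, PHO1 and PHO1;H1.

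Counted over the 6 genes, edgeR without a block called no more than 1 in any comparison of a single pair of groups. At 1 h against 0 h, 1 of 6 was called in Ler and 1 of 6 in Col, where 6.82% of all features were called in Ler and 11.1% in Col, and the libraries did not overlap for 3 genes in Ler, against 26.04% of all features, and for 1 in Col, against 22.2%. Averaged over ecotypes at 1 h, 2 of 6 were called, both lower, against 10.03% of all features called lower and 19.8% in either direction. At 2 h against 0 h edgeR called none of the 6 in either ecotype, with 2.801% of features called in Ler and 6.39% in Col. At an unadjusted p under 0.05 there were 0 in Ler and 1 in Col, PHO1, and DESeq2 called 0 in both. Averaged over ecotypes at 2 h against 0 h edgeR again called 0, where 8.63% of features were called, 2 genes had an unadjusted p under 0.05, and DESeq2 called 1, PHO1 (adjusted p = 0.0341).

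From 1 h to 2 h edgeR called none of the 6 within Ler, where 1.102% of features were called, or within Col, where 2.23% were. At an unadjusted p under 0.05 there were 1 in Ler and 0 in Col, and DESeq2 called 0 in both. Averaged over ecotypes 1 of 6 was called, where 5.74% of features were. Ler against Col gave 0 of 6 at 0 h, 1 of 6 at 1 h and 1 of 6 at 2 h, where 17.7%, 13.99% and 15.8% of all features were called. At 0 h 1 gene, NLA, had an unadjusted p under 0.05 and DESeq2 called 0. At 2 h DESeq2 called 3, adding IPS1 (adjusted p = 0.0308) and PHO1 (adjusted p = 0.0274). The shares of all features given here are those of edgeR, and the share that DESeq2 called was not counted. Averaged over times 4 of 6 were called, all higher in Ler, against 16.5% of features called higher and 32.7% in either direction. The interaction of ecotype and time was called for 0 of 6 at 1 h and at 2 h, with 0.00485% and 0% of all features, 0 and 1 of the 6 at an unadjusted p under 0.05, and 0 and 0 by DESeq2.

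The median log2 change of the 6 genes was -0.25 in Ler and -0.69 in Col at 1 h against 0 h, beside medians over all features of -0.0065 in Ler and 0.028 in Col. At 2 h against 0 h it was 0.12 in Ler and -0.58 in Col, beside -0.025 and 0.0051 over all features. For Ler over Col averaged over times it was 0.52, beside 0.0015.

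The mimics were also set against PHO2 within each library, as the summed level of IPS1 and AT4 per kilobase divided by that of PHO2. AT4 stood at 21.9 to 77.3 times IPS1 per kilobase, so this ratio is mainly that of AT4 to PHO2. The ratio averaged 6.89 ± 2.67 in Ler at 0 h, 8.46 ± 2.37 at 1 h and 10.6 ± 3.20 at 2 h. In Col it averaged 4.77 ± 0.86 at 0 h, 3.28 ± 1.06 at 1 h and 4.42 ± 0.76 at 2 h (SD, n = 3 each). The Ler and Col libraries overlapped at 0 h, and at 1 h and 2 h all Ler ratios were above all Col ratios.

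Other genes of the circuit were counted from lists. Of the 11 genes of the PHO1 family, 9 passed the filter, PHO1 and PHO1;H1 among them. At 1 h against 0 h over both ecotypes 2 fell, PHO1 and PHO1;H1, and 2 rose, against 10.03% of all features called lower and 19.8% in either direction, with a median of -0.0042, beside 0.016 over all features. The family member that rose most was PHO1;H4, also known as SHB1 and as a regulator of seedling light responses. It averaged 10.5 ± 2.68 CPM in Ler at 1 h, against 2.48 ± 1.11 CPM in Ler at 0 h (log2 2.07, adjusted p = 0.00249). In Col it averaged 11.3 ± 2.27 CPM at 1 h, against 1.95 ± 0.53 CPM at 0 h (log2 2.54, adjusted p = 0.000564). The other that rose was PHO1;H7 (log2 1.32, adjusted p = 0.0276), named after its values were seen. PHO1;H4 thus changed opposite to PHO1 and PHO1;H1 in the same libraries.

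In Ler against Col averaged over times, 3 of the 9 family members were higher and 1 lower, against 16.5% of all features called higher and 32.7% in either direction. PHO1;H10 was higher by 2.25 (SE 0.37, adjusted p = 0.000199), with 7.40 ± 0.58 CPM in Ler at 1 h, against 0.77 ± 0.14 CPM in Col at 1 h. PHO1;H8 was lower in Ler by a log2 difference of -0.82 (SE 0.19, adjusted p = 0.00365).

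The transporters whose proteins PHO2 and NLA break down were the second list, of 11 genes with 7 past the filter, PHO1 again among them. At 1 h against 0 h, 1 fell in Ler, PHO1, and none was called in Col by edgeR without a block, where 1 had an unadjusted p under 0.05 and DESeq2 called 1. Over all features edgeR called 6.82% in Ler and 11.1% in Col. At 2 h against 0 h in Ler, where 2.801% of all features were called, 2 of the 7 rose: the phosphate uptake carrier PHT1;4 (log2 1.21, adjusted p = 0.0493) and PHF1, which helps such carriers leave the endoplasmic reticulum (log2 0.69, adjusted p = 0.0494), both named after their values were seen. Both lay at the threshold: 0 to 4 genes of the list were called with 1 library left out, 0 with a minimum mean of 1 CPM, 1 with no filter and 5 with DESeq2. At 2 h in Col edgeR without a block called none of the list, against 6.39% of all features. There, 1 gene of the list had an unadjusted p under 0.05, and DESeq2 called 0. Averaged over times, Ler was higher than Col for 4 of the 7 genes and lower for 1, against 16.5% of all features called higher and 32.7% in either direction, with a median of 0.48, beside 0.0015 over all features.

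Among these carriers the uptake transporter PHT1;1 was lower in Ler by a log2 difference of -1.28 (adjusted p = 8.58e-05), PHT1;2 was higher by 0.99 (adjusted p = 0.00166) and PHT1;9 was higher by 0.93 (adjusted p = 0.0265). PHT1;1 and PHT1;2 match over 1577 bases at 97.7% identity, and how reads that fit both were counted is not given in the sources used here, so their opposite differences are uncertain. PHT1;8, a root-to-shoot phosphate transporter, had 18 to 92 counts per library in Ler, against 0 to 5 counts in Col. PHO1 was thus 1 of 5 genes of the list called between the ecotypes.

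**Figure D4:**
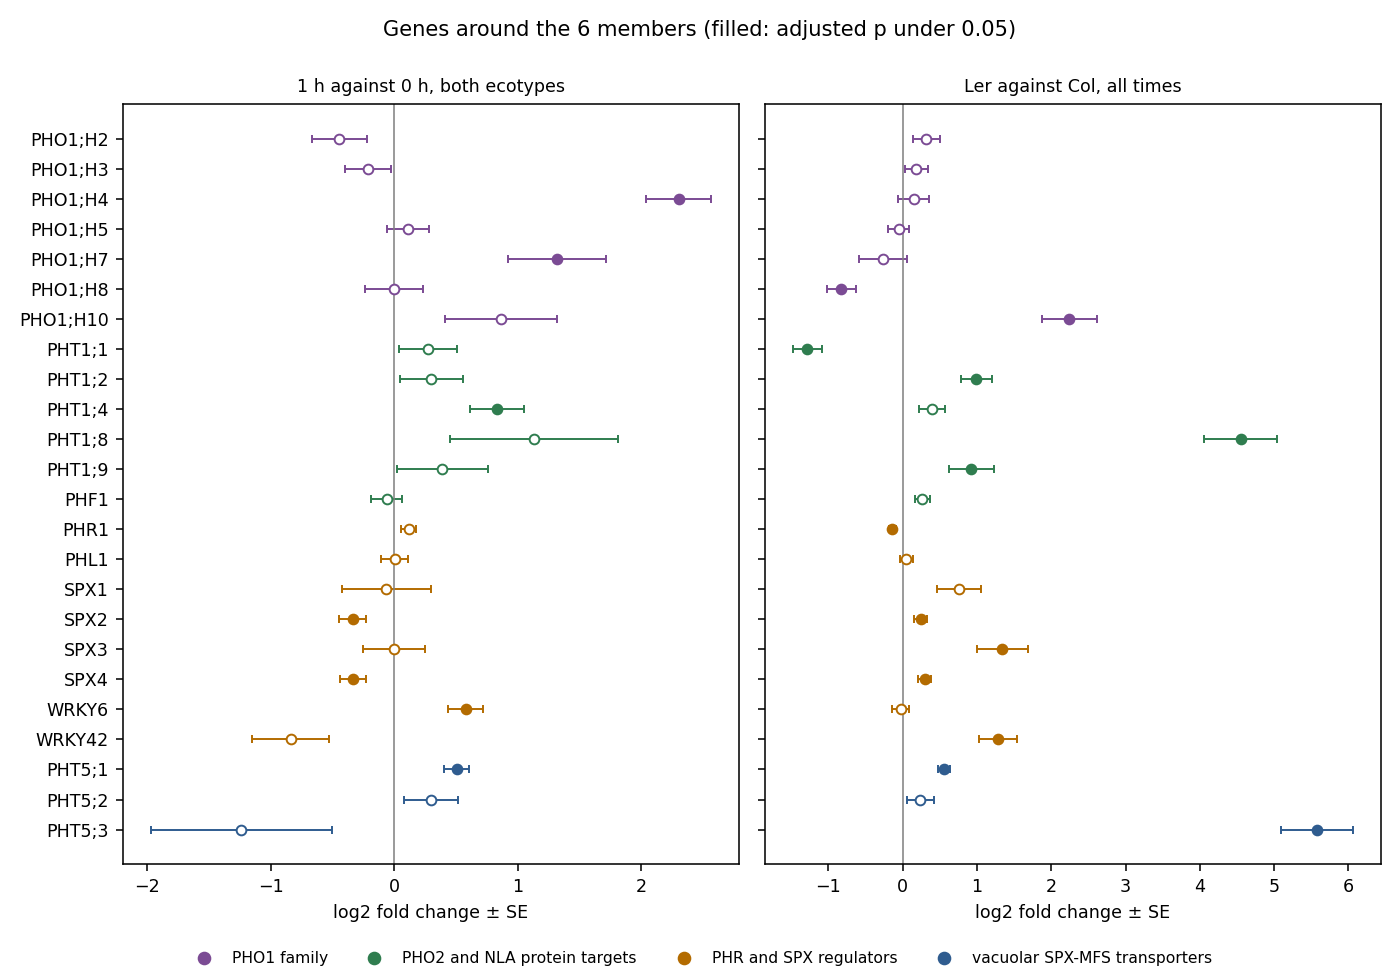
Log2 fold changes with SE of the listed genes that passed the filter and are not among the 6, for 1 h over 0 h averaged over ecotypes (left) and Ler over Col averaged over times (right); colours mark the list and filled points an adjusted p under 0.05. PHO1;H4 stands at 2.30 on the left, and PHT1;8 and PHT5;3 are farthest right on the right, where Col libraries held at most 5 counts of either.

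Of 8 regulators around PHR1 and the SPX phosphate sensors, all of which passed the filter, Ler was higher than Col for 4 and lower for 1 averaged over times, against 16.5% of all features called higher and 32.7% in either direction. The repressor of PHO1 WRKY42 was higher in Ler by 1.28 (SE 0.25, adjusted p = 0.000906), in the same direction as PHO1 itself. SPX3 was higher by 1.34 (adjusted p = 0.00623) at no more than 26 counts in a library. The SPX-domain proteins SPX4, by 0.30 (adjusted p = 0.0153), and SPX2, by 0.24 (adjusted p = 0.043), were also higher in Ler, and PHR1, named after its values were seen, was lower with a log2 difference of -0.14 (adjusted p = 0.0451). In time, SPX4 fell by 0.54 in Col at 1 h (adjusted p = 0.0329), where 11.1% of all features were called. By edgeR without a block, none of the 8 was called in Ler at 1 h or 2 h or in Col at 2 h. Over all features the shares there were 6.82%, 2.801% and 6.39%. At an unadjusted p under 0.05, Ler had 1 of the 8 after 1 h and 2 after 2 h, where DESeq2 called 1 each time. Col had 1 after 2 h, where DESeq2 called 0.

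All 3 vacuolar phosphate transporters with an SPX domain passed the filter. PHT5;1, the main carrier of phosphate into the vacuole, rose by 0.61 in Ler at 2 h against 0 h (adjusted p = 0.0377) and by 0.61 in Col at 1 h against 0 h (adjusted p = 0.0147). It was also higher in Ler than in Col averaged over times, by 0.56 (adjusted p = 9.23e-05). PHT5;3 had 18 to 71 counts per library in Ler, against 0 to 4 counts in Col.

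The features whose pattern over the 18 libraries was most like each gene were taken by Pearson's r of log2 CPM among 18745 features with a mean of at least 1 CPM. The libraries share ecotype, time and replicate structure, so r is a description only. For AT4 they were LACS2, a long-chain acyl-CoA synthetase (r = 0.953), FAR4, a fatty acid reductase (r = 0.949), and AT4G38080, annotated as a hydroxyproline-rich glycoprotein (r = 0.940). LACS2 averaged 44.2 ± 21.8 CPM in Ler at 2 h, against 3.97 ± 3.18 CPM in Col at 2 h. For IPS1 they were AT1G65820 (r = 0.846), AT5G48780 (r = 0.828) and AT4G16146 (r = 0.825).

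For PHO1 they were MLO10 (r = 0.936), UMAMIT20 (r = 0.936) and GLTP3 (r = 0.935). For PHO1;H1 they were AT4G33770, annotated as an inositol phosphate kinase family protein (r = 0.942), AT3G30875 (r = 0.913) and AT1G49470 (r = 0.910). AT4G33770 averaged 15.7 ± 0.24 CPM in Ler at 0 h, 8.38 ± 3.11 CPM at 1 h and 15.2 ± 3.30 CPM at 2 h. In Col it averaged 15.1 ± 5.09 CPM at 0 h, 5.05 ± 1.68 CPM at 1 h and 7.61 ± 2.68 CPM at 2 h.

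For PHO2 they were LAX1, an auxin influx carrier (r = 0.892), AT5G03880 (r = 0.878) and AT1G18490 (r = 0.858). For NLA they were XBAT35 (r = 0.890), AT5G07580 (r = 0.889) and BIR1 (r = 0.882). With values centred within each ecotype, 2 of the 3 were the same for AT4 and for PHO2, 1 for PHO1 and none for IPS1, NLA or PHO1;H1.

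Ranked by mean level over the 6 groups, IPS1 ran Ler 2 h, Ler 1 h, Ler 0 h, Col 0 h, Col 2 h and Col 1 h, and AT4 ran Ler 2 h, Ler 0 h, Ler 1 h, Col 0 h, Col 2 h and Col 1 h. AT4 thus had the 3 Ler groups above the 3 Col groups. For IPS1 the order of Ler 0 h and Col 0 h is not resolved: both averaged 1.95 CPM, and the log2 difference of 0.0011 became -0.029 with DESeq2. PHO1 and PHO1;H1 both began with Ler 0 h, Ler 2 h and Col 0 h. PHO2 ran Ler 0 h, Col 0 h, Ler 2 h, Col 1 h, Ler 1 h and Col 2 h, and NLA ran Col 0 h, Ler 2 h, Col 1 h, Ler 1 h, Col 2 h and Ler 0 h. Neighbours in these orders overlapped in range for every gene, with the exception of PHO1;H1, whose Col 0 h libraries were all above its Col 2 h libraries.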

How the data were processed

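The deposited values were raw read counts per feature, 1 column per library, made by the authors; TopHat2, Bowtie2 and TAIR10 are named per the submitters' processing notes, without a role. The counting tool, the annotation, the treatment of reads that match several loci and the sequence used for Ler are not given in the sources used here. Per the labels' protocols libraries were poly(A)-selected and stranded. The treatment field of the 0 h libraries reads as untreated, while other protocol text describes a move to fresh medium with phosphate. Of 33602 features listed for Col, 32852 were also listed for Ler, and these were used.

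Counts were filtered with filterByExpr (minimum count 10, minimum total 15), scaled by TMM and fitted with edgeR 4.0.16 (limma 3.58.1, R 4.3.3) as 1 mean per group over all 18 libraries, with 12 residual degrees of freedom and no block. Each of 15 contrasts was tested with glmQLFTest, adjusted by Benjamini-Hochberg over 20599 features. The SE is the absolute log2 fold change divided by the square root of F. DESeq2 1.42.0, other scaling, other filters, a replicate block, fits of the compared libraries alone and leaving out each library were tried as alternatives. The procedure was tested on simulated data. Library totals ranged from 23451068 to 29277597 counts, and floors cover counting error only.

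The 6 genes and the lists were chosen with earlier results of these data known. Named were the 6 genes, up to 4 genes of each list past the threshold within an ecotype or in Ler against Col averaged over times, by smallest adjusted p, and the 3 features most correlated with each gene. MicroRNA sites were searched in RefSeq transcripts with up to 5 mismatches and a bulge of up to 3 bases between microRNA positions 10 and 11. No member transcript matched another locus at 95% identity over 50% of its length, and IPS1 and AT4 match each other over 128 bases at 82.0%.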

Additional observations from a re-analysis of the deposited data

How the results depend on the processing

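Calls rested on few libraries. Settings other than leaving out a library were DESeq2, DESeq2-type size factors, no filter and a minimum mean of 1 CPM. Others were only the libraries contrasted, a replicate block and no organelle features. The last repeated the main fit, because 0 of the features used were organelle features, so its values could not change. Of the log2 fold changes of the 6 genes under all these settings, 600 kept their direction and side of the threshold. The 600 include those of the repeated fit. A further 18 came past the threshold, 3 lost a call and 3 changed sign. With 1 library left out the numbers were 722, 11, 26 and 33. DESeq2 called 1 of the 6 genes in the averaged change at 2 h against 0 h, 2 in Ler at 1 h, and 3 for Ler against Col at 2 h. The share of all features that DESeq2 called was not counted. These numbers, and the DESeq2 numbers given above, therefore cannot be set against it. With only the libraries contrasted, 0 were called in Col at 1 h (PHO1;H1 adjusted p = 0.0721), 0 for Ler against Col at 1 h and 0 from 1 h to 2 h averaged over ecotypes (PHO1;H1 adjusted p = 0.115). The cause was not tested. With 1 library left out, the number called ranged from 0 to 2 for Ler at 1 h and for Col at 1 h, 0 to 1 for Col at 2 h, 0 to 1 for Ler against Col at 0 h, 0 to 1 at 1 h, 1 to 3 at 2 h and 2 to 4 averaged, and 0 to 1 in the averaged changes at 2 h against 0 h and from 1 h to 2 h.

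Replicates were numbered 1 to 3 in every group. Of 45 pairs with the same number, 41 had deviations from their group means that correlated above 0.1 (lowest 0.0057, mean 0.35). The mean between different numbers was -0.17. It is no separate evidence, because deviations within a group sum to 0 and so tie it to the first mean. Because not all pairs passed the limit of 0.1, the number was not used as a pairing in the tests. With the number as a block, the common coefficient of variation that edgeR estimated between replicates was 14.8%, against 21.5% without it. As a hint from the data, 18 of 18 libraries correlated best with their own number. With the replicate block, 2 of the 6 genes were called in Ler at 1 h, PHO1 and PHO1;H1, where 14.5% of all features were called. In Col at 1 h the same 2 were called (21.7%). The block called 3 for Col at 2 h (PHO2, NLA and PHO1, all lower, 22.1%) and 1 in Ler from 1 h to 2 h (PHO1;H1, higher, 7.62%). In the averaged change at 1 h it called 3, all lower (29.8%): PHO1, PHO1;H1 and PHO2 (PHO2 adjusted p = 0.0163). In the averaged change at 2 h it called 2, both lower (18.1%): PHO1 and PHO2 (PHO2 adjusted p = 0.0414). For Ler against Col it called 2 at 0 h (PHO1 higher, NLA lower, 30.1%). At 2 h it called 4, all higher in Ler (IPS1, AT4, PHO1 and PHO1;H1, 25.7%). Of the 7 genes past the filter in the transporter list, which includes PHF1, the block called 5 higher in Ler at 2 h against 0 h. Over all features it called 6.18% higher there and 8.86% in either direction. In Col at 2 h it called PHT1;1 higher (adjusted p = 0.0417) and PHO1 lower, where 22.1% of all features were called. Of the 8 regulators it called WRKY6 higher in Ler at 1 h, where 14.5% of all features were called. In Ler at 2 h it called WRKY6 and WRKY42 higher, against the same 8.86%. The block raised the features called in Col at 1 h to 4462, against 2282 without it.

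Sign changes befell only values that were not called. IPS1 in Ler against Col at 0 h was -0.029 with DESeq2 and -0.029 with its size factors, and NLA in Ler from 1 h to 2 h was -0.011 with the block. With 1 library left out, log2 ranges that crossed 0 were, for AT4, -0.20 to 0.12 (2 h against 0 h, averaged), -0.045 to 0.43 (2 h against 1 h, Col) and -0.28 to 0.13 (1 h against 0 h, Ler). For IPS1 they were -0.028 to 0.51 (2 h against 0 h, averaged) and -0.52 to 0.40 (Ler against Col, 0 h). For NLA they were -0.30 to 0.079 (1 h against 0 h, averaged), -0.38 to 0.00028 (2 h against 0 h, averaged), -0.21 to 0.04997 (2 h against 1 h, averaged), -0.42 to 0.044 (the same in Col), -0.21 to 0.30 (the same in Ler), -0.15 to 0.11 (Ler against Col, 1 h) and -0.029 to 0.49 (Ler against Col, 2 h). For PHO1 the range was -0.39 to 0.093 (2 h against 1 h, Col), and for PHO1;H1 -0.20 to 0.41 (interaction at 1 h) and -0.16 to 0.069 (2 h against 0 h, Ler). For PHO2 they were -0.026 to 0.12 (2 h against 1 h, averaged), -0.28 to 0.032 (the same in Col), -0.35 to 0.026 (interaction at 1 h), -0.11 to 0.27 (Ler against Col, 0 h) and -0.20 to 0.093 (Ler against Col, 1 h). IPS1 had the fewest counts of the 6 genes, 14 to 169 per library.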

Other observations

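Within a group the 6 genes often shared their highest or lowest library. Replicate 1 of Ler at 2 h and replicate 1 of Col at 2 h each held the highest level of 6 of 6 genes. Replicate 2 held the lowest level of 5 of 6 genes in Ler at 1 h, in Ler at 2 h, in Col at 0 h and in Col at 2 h. How often these libraries were highest or lowest over all features was not counted, so this is not shown to be particular to the 6 genes. The highest library exceeded the lowest by up to 4.19-fold, for IPS1 in Col at 0 h, and by as little as 1.04-fold, for PHO2 in Ler at 1 h. Replicate 1 of Col at 2 h also had the highest photosynthesis marker sum of its group, 108 CPM, against 63.5 and 57.2 CPM in replicates 2 and 3 of that group, and in Ler at 2 h the sums were 152, 66.2 and 168 CPM in replicates 1, 2 and 3. The part of these markers in the spread was not tested.

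The markers of root hairs and endodermis, COBL9, EXPA7 and CASP1, were lower in Ler than in Col for 3 of 3 genes averaged over times, against 32.7% of all features called in either direction, with a median log2 difference of -0.90, beside 0.0015 over all features tested. Root tip markers were higher in Ler for 1 of 5 genes and lower for none.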
